A study of Mus musculus with 9 samples.

Results

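The genes described here are the 9 genes of the MHC class II antigen presentation pathway that were chosen by their symbol in the epidermal count table, out of 52550 genes listed. They are H2-Aa, H2-Ab1 and H2-Eb1, which encode chains of the class II molecules, H2-DMa, H2-DMb1 and H2-DMb2, which encode chains of the peptide-loading factor H2-DM, H2-Oa, a chain of its inhibitor H2-O, Cd74, the invariant chain, and Ciita, the transcriptional coactivator of the class II genes. No measured value set the choice, but earlier results of these data were known when it was made.

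A class II molecule is a pair of an alpha and a beta chain that is assembled on the invariant chain, which fills the groove and carries the complex to endosomes. There cathepsins break down antigens and the invariant chain, H2-DM exchanges the last fragment of the invariant chain for an antigenic peptide, and the loaded molecule is shown at the cell surface to CD4+ T cells. In the epidermis, Langerhans cells are the resident cells known for carrying class II molecules at high level, and other cells can gain them under interferon-gamma.

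RNA was sequenced from epidermal sheets of the ears of wild-type C57BL/6 mice (C57BL/6J in the study's methods) 8 weeks old, in 3 groups of 3 libraries. VAS + H2O mice received Vaseline on the skin and water by gavage, IMQ + H2O mice had water and topical imiquimod, which activates Toll-like receptor 7 and gives a psoriasis-like dermatitis, and IMQ + XYF mice received imiquimod and the herbal decoction Xiao-Yin-Fang at 23.3 mg/g. Gavage ran for 10 days, once daily by the labels and the methods but more often by the study's figure legends, in a volume of 200 μl, and the topical agent was applied on 5 of them. Sheets are a mixture of cells and the study's methods speak of ear sheets from a pair of mice without saying whether this holds for each library, so p-values measure the spread between these libraries.

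The libraries held 30298275 to 64771160 counts, and 3 counts, taken as the floor of detection for counting error only, corresponded to 0.0463 to 0.0990 CPM (counts scaled to a common library total). Keratinocyte genes summed to 36680 CPM or more in every library, and Cd207, which encodes the Langerhans cell lectin langerin, was detected in all 9. In all, 3 libraries stood apart in other cell types. VAS + H2O replicate 2 had 934 CPM of dermal fibroblast and cartilage genes, against 78.0 to 352.8 CPM in the 6 libraries with imiquimod, and IMQ + H2O replicate 3 and IMQ + XYF replicate 1 had 1642 and 1459 counts of the neutrophil receptor gene Csf3r, against 0 to 214 in the other 7. Counts of genes that passed are given without these libraries where they changed.

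The 7 H2 genes lie together on chromosome 17 of GRCm38, from H2-Oa at chr17:34092340-34095234 on the plus strand to H2-Eb1 at chr17:34305867-34316674, and Ciita is at chr16:10480059-10528418. H2-DMb2 (chr17:34143307-34151555) and H2-DMb1 (chr17:34153072-34160230) are neighbours on the plus strand. Their promoters are shown because class II genes are known to share an X box, bound by RFX and CREB proteins, and a Y box, bound by NF-Y, on which Ciita acts. RefSeq promoters of GRCm38.p6, from 250 bases before to 50 bases after the gene start, were found for 6 of the 9 members. Of these, 5 held ATTGG, the Y box core, at 43 to 90 bases before the RefSeq start. RefSeq starts can differ from those of the spans above, and the windows of H2-DMb2 and H2-DMb1 lie inside these spans. Each line below gives 55 bases, 5′ to 3′ on the strand of the gene, with matches to ATTGG and to the X box letters ACNGATG in capitals.
H2-Oa: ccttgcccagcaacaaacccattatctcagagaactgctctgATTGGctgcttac
H2-DMb2: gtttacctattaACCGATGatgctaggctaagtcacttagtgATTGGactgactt
H2-DMb1: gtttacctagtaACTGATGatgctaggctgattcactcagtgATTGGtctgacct
H2-Aa: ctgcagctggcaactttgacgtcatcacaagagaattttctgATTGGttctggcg
H2-Eb1: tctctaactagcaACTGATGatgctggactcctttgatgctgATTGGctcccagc

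These windows are chr17:34092294-34092348 (H2-Oa), chr17:34145117-34145171 (H2-DMb2), chr17:34153088-34153142 (H2-DMb1), chr17:34287859-34287913 on the minus strand (H2-Aa) and chr17:34305766-34305820 (H2-Eb1). Both motifs, with ATTGG 5 to 30 bases after ACNGATG, were present in H2-DMb2, H2-DMb1 and H2-Eb1. Of 32851 promoters of the same length, searched on both strands, 37.4% held ATTGG, 9.85% held ACNGATG and 0.192% held both in this arrangement. These shares count a match at any position, not only in windows like those shown. Outside the windows, ATTGG also stood at position -198 in a promoter of H2-DMa. ACNGATG stood at -137 in H2-Oa and, on the other strand, at -232 in H2-Aa. The H2-DMb2 and H2-DMb1 windows had the same base at 48 of 55 positions, the highest identity among the 5 windows. A match is a description of the letters and shows no binding.

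Per kilobase of annotated exon, the invariant chain was the most abundant class II transcript in the epidermis. In VAS + H2O, Cd74 reached 148.6 ± 21.2 CPM per kb (SD, n = 3), H2-Ab1 49.8 ± 5.26, H2-Eb1 48.1 ± 5.01 and H2-Aa 30.3 ± 4.28. H2-Ab1 and H2-Eb1 differed by less than their spread. The H2-DM chains followed at 7.80 ± 0.462 for H2-DMb1, 4.40 ± 0.412 for H2-DMa and 2.54 ± 0.443 for H2-DMb2 in the same unit. Ciita, a regulator, was at 0.599 ± 0.154 and H2-Oa at 0.188 ± 0.164 CPM per kb. Under IMQ + H2O the order was the same down to H2-DMb1, and H2-DMa (3.72 ± 0.588) and H2-DMb2 (3.69 ± 0.200) could no longer be told apart. The exon length joins all annotated transcripts of a gene, which lowers the value of a gene with long rare exons.

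**Figure D1:**
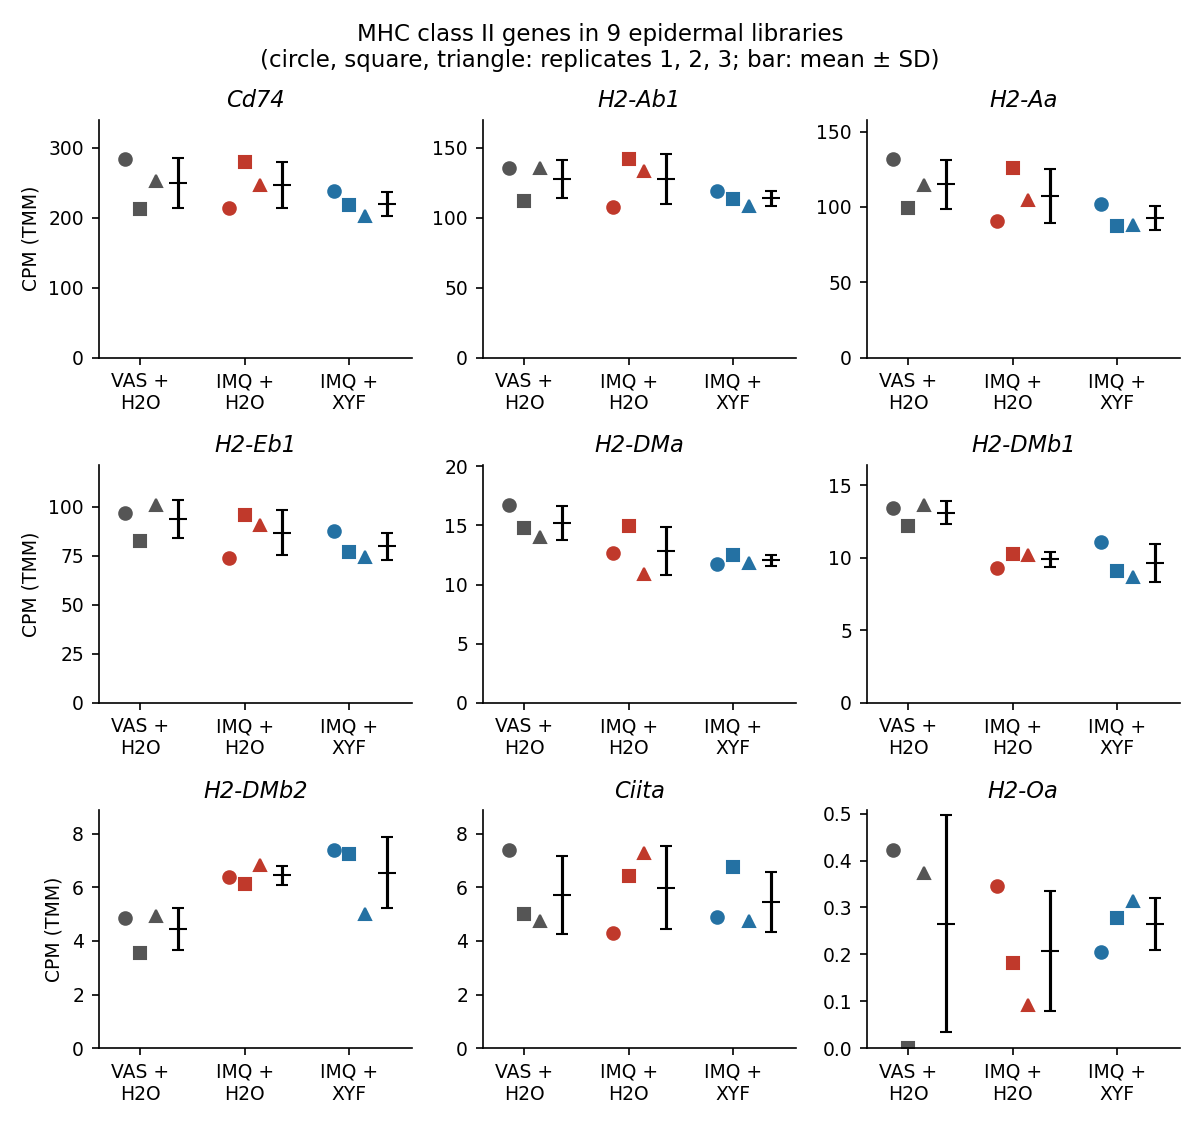
CPM (y axis, TMM-scaled, from 0) of the 9 genes in the 3 groups (x axis), with a point for each library and a bar for the mean ± SD of 3 libraries. The libraries of VAS + H2O overlap with both imiquimod groups for Cd74, H2-Ab1, H2-Aa, H2-Eb1, Ciita and H2-Oa, whereas H2-DMb1 lies lower and H2-DMb2 higher in both, and H2-DMa lies lower in IMQ + XYF.

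The first comparison, IMQ + H2O against VAS + H2O, shows how class II transcripts stood in epidermis under imiquimod. The genes of the surface molecules and of the invariant chain had fitted folds of 0.919 to 0.989, and the only members whose groups did not overlap were the 2 genes of the H2-DM beta chain, which moved in opposite directions. None of the 9 members, all of which passed the filter on low counts, was a DEG (adjusted p of at most 0.05 and a change of at least 2-fold by edgeR), against 7.68% of the 18009 genes tested. By adjusted p alone 1 of 9 passed, against 22.1% of all genes, and it was lower, as were 9.41% of all genes. The groups did not overlap in 2 of 9 members, against 45.0% of all genes. The median log2 fold change of the members was -0.12, beside -0.03 over all genes.

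Cd74 was measured at 284, 213 and 252 CPM in VAS + H2O and at 214, 279.7 and 247 CPM in IMQ + H2O. The ranges were almost the same. The fitted log2 fold change was -0.03 (95% interval -0.35 to 0.30, adjusted p = 0.908, edgeR), so that the interval left out a change of 2-fold either way.

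H2-Ab1, the beta chain of the class II molecule I-A, was at 136, 112 and 136 CPM in VAS + H2O and at 108, 142 and 133 CPM in IMQ + H2O. H2-Aa, its alpha chain partner, was at 132, 99.1 and 114 CPM against 90.3, 126 and 105 CPM. For both chains the lowest and the highest libraries of the groups were interleaved. The log2 fold changes were -0.02 (95% interval -0.32 to 0.28) for H2-Ab1 and -0.12 (-0.47 to 0.24) for H2-Aa, with adjusted p-values of 0.939 and 0.61 by edgeR.

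H2-Eb1 encodes the beta chain of I-E, which C57BL/6 mice are known not to form because their alpha chain gene is defective. Its values were 96.9, 82.5 and 101 CPM in VAS + H2O and 73.9, 95.8 and 90.4 CPM in IMQ + H2O. The groups overlapped, with a log2 fold change of -0.12 (-0.41 to 0.17, adjusted p = 0.508 by edgeR). The alpha chain pseudogene H2-Ea-ps had 0 counts in all 9 libraries. H2-Eb1 was thus transcribed at a level like that of H2-Ab1 without counts for its partner.

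Ciita was at 7.40, 5.00 and 4.73 CPM in VAS + H2O and at 4.28, 6.42 and 7.26 CPM in IMQ + H2O, with overlap and a log2 fold change of 0.06 (-0.57 to 0.69, adjusted p = 0.899 by edgeR). Its interval was wider than those of the chains.

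H2-DMb1, a beta chain of H2-DM, was at 13.4, 12.2 and 13.7 CPM in VAS + H2O and at 9.29, 10.2 and 10.2 CPM in IMQ + H2O, so that every library with imiquimod lay below every control. The log2 fold change was -0.42 ± 0.12 (SE), with an adjusted p of 0.0454 by edgeR. Leaving out any one of the 6 libraries ended the call, with adjusted p-values of 0.0876 to 0.168 and log2 fold changes of -0.46 to -0.34. With the replicate number as a block, with no filter on low counts, or with at least 10 counts in every library, no member passed in this comparison.

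H2-DMb2, which encodes a beta chain too, was at 4.84, 3.55 and 4.93 CPM in VAS + H2O and at 6.39, 6.13 and 6.83 CPM in IMQ + H2O. All 3 imiquimod libraries lay above all controls. Its log2 fold change of 0.53 ± 0.18 (SE) had an adjusted p of 0.0776 by edgeR and did not pass, whereas the adjusted p was 0.0438 by DESeq2. H2-DMa, the alpha chain common to both, was at 16.8, 14.8 and 14.0 CPM against 12.7, 14.9 and 10.9 CPM, which overlapped (log2 fold change -0.26, 95% interval -0.62 to 0.10, adjusted p = 0.263 by edgeR). H2-DMa overlaps Brd2 on the other strand, which had 5518 to 13411 counts per library, and without the strand setting their reads cannot be told apart.

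The chains of H2-O, which is known to restrain H2-DM mainly in B cells, were close to the floor. H2-Oa had 20, 0 and 13 counts in VAS + H2O, 10, 7 and 4 in IMQ + H2O and 13, 9 and 11 in IMQ + XYF. H2-Ob, its beta chain partner, had 0, 0 and 2 counts, then 5, 9 and 12, then 21, 6 and 18. H2-Oa was so low that its interval in the first comparison ran from -2.80 to 1.90 on the log2 scale, and a difference was not detectable at this depth. H2-Eb2, a further beta chain gene, had 0 counts in all VAS + H2O libraries, 0, 10 and 18 in IMQ + H2O and 32, 0 and 7 in IMQ + XYF.

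**Figure D2:**
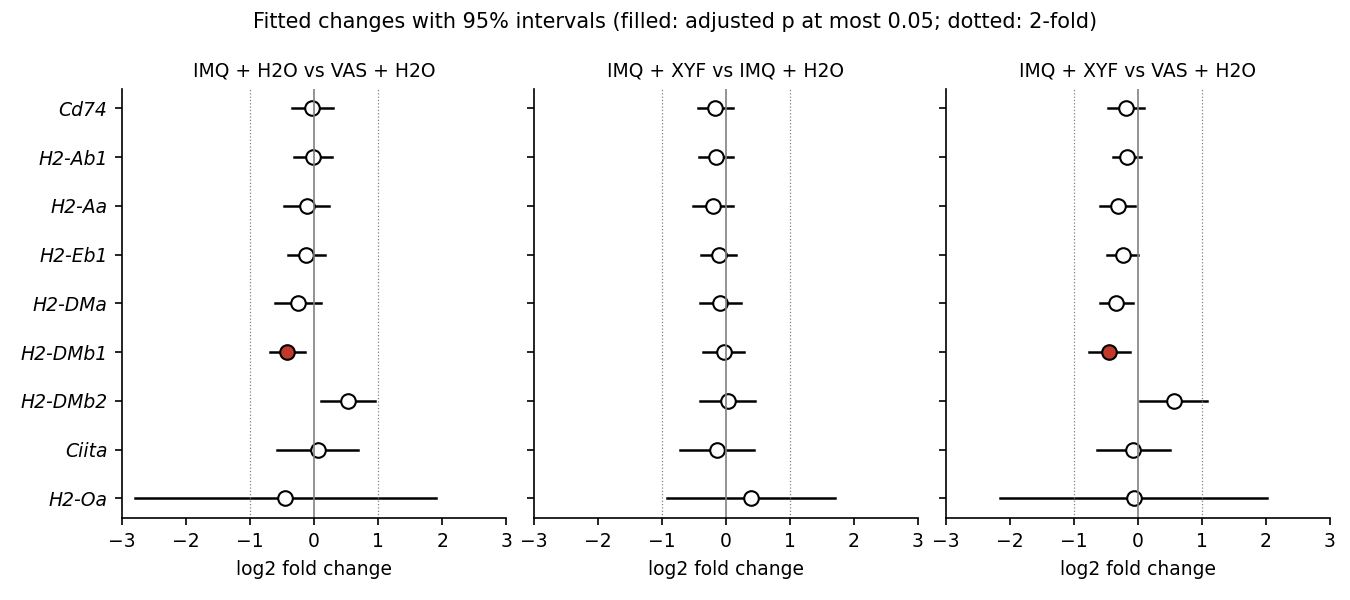
Log2 fold change (x axis) of each of the 9 genes (y axis) in the 3 comparisons, with 95% intervals from edgeR as lines, filled points for an adjusted p of at most 0.05 and dotted lines at 2-fold. H2-DMb1 is the only filled point, at -0.42 and -0.44 against VAS + H2O, and every point lies between the dotted lines.

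The second comparison, IMQ + XYF against IMQ + H2O, asks what the decoction added under imiquimod. No class II gene passed as different between these groups. None of the 9 members was a DEG or passed the adjusted p alone, against 0.0281% of the 17793 genes by either rule. None had an unadjusted p under 0.05 by edgeR, against 5.43% of all genes. By DESeq2 no member passed the adjusted p, where 166 of the 17793 genes did. No member was without overlap, against 10.7% of all genes. The median log2 fold change was -0.12, beside 0.00 over all genes.

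Cd74 was at 238, 218 and 203 CPM in IMQ + XYF, H2-Ab1 at 119, 114 and 108 CPM, H2-Aa at 102, 87.4 and 88.2 CPM and H2-Eb1 at 87.7, 76.9 and 74.5 CPM. All 4 were on average lower than in IMQ + H2O, with overlap for each gene. Their log2 fold changes were -0.16 (95% interval -0.44 to 0.11), -0.16 (-0.42 to 0.11), -0.20 (-0.52 to 0.11) and -0.12 (-0.40 to 0.17), each with an adjusted p of 0.9999 by edgeR.

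Ciita was at 4.90, 6.75 and 4.73 CPM in IMQ + XYF. Its log2 fold change against IMQ + H2O was -0.13 (95% interval -0.71 to 0.44). For H2-DMa, H2-DMb1 and H2-DMb2 the differences were -0.09 (-0.41 to 0.24), -0.03 (-0.35 to 0.29) and 0.03 (-0.40 to 0.46) on the log2 scale. A shift of the size seen for H2-DMb1 between IMQ + H2O and VAS + H2O lay outside the H2-DMb1 interval.

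The third comparison, IMQ + XYF against VAS + H2O, shares its libraries with the others and is no independent evidence. Again 0 of 9 members were DEGs (7.64% of 17954 genes), and 1 of 9 passed the adjusted p (28.7% of genes), in the lower direction (12.0% of genes). The groups did not overlap in 3 of 9 members, against 47.5% of genes, and the median log2 fold change of the members was -0.18 beside -0.04.

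H2-DMb1 was at 11.1, 9.09 and 8.69 CPM in IMQ + XYF, below all controls, with a log2 fold change of -0.44 ± 0.13 (SE) and an adjusted p of 0.0482 by edgeR. Without IMQ + XYF replicate 1 the adjusted p was 0.0431, and without each of the other 5 libraries the call was lost, with adjusted p-values of up to 0.151, as it was with the block, with no low-count filter and with at least 10 counts in every library. H2-DMb2 was at 7.40, 7.24 and 5.01 CPM, above all controls, with a log2 fold change of 0.56 ± 0.22 and an adjusted p of 0.1 by edgeR. H2-DMa was at 11.8, 12.5 and 11.8 CPM, below all controls, with a log2 fold change of -0.34 ± 0.11 and an adjusted p of 0.0612 by edgeR, or 0.0389 by DESeq2.

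The 3 surface chains and Cd74 had values on the lower side in the same comparison. H2-Aa was at -0.31 (95% interval -0.60 to -0.03, adjusted p = 0.0906 by edgeR) on the log2 scale, H2-Eb1 at -0.23 (-0.47 to 0.01), H2-Ab1 at -0.17 (-0.39 to 0.05) and Cd74 at -0.18 (-0.46 to 0.10). Without VAS + H2O replicate 2, the library with dermal and cartilage genes, H2-Aa passed with an adjusted p of 0.0429. Of the 7 tested Langerhans cell genes, 4 lay on the lower side and 3 on the higher side. Cd207 was at -0.38 (adjusted p = 0.0808 by edgeR) and Csf1r at -0.35 (adjusted p = 0.0864), both below all controls. Tyrobp was at 0.58, above all controls. The groups thus did not overlap in 3 of the 7, against 47.5% of all genes. The part of Langerhans cells in the class II values was not tested. In such mixed tissue, fewer cells of a type and less RNA per cell cannot be told apart.

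The opposite values of the H2-DM beta genes were also expressed as the share of H2-DMb2 in both genes' counts, a measure chosen after the values were seen. H2-DMb2 made up 25.2 ± 2.31% (SD, n = 3) of these counts in the controls, with single libraries at 22.5 to 26.5%. The share was 39.5 ± 1.76% under imiquimod with water (37.5 to 40.8%) and 40.3 ± 3.88% under imiquimod with the decoction (36.6 to 44.3%). All 6 imiquimod libraries were thus above all 3 controls, and the imiquimod groups overlapped.

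The difference was 14.3 percentage points between IMQ + H2O and VAS + H2O, 15.1 between IMQ + XYF and VAS + H2O and 0.838 between the imiquimod groups. By two-sided exact permutation tests the p-values were 0.1, 0.1 and 1, where 0.1 is the smallest that 3 against 3 libraries can give, and 0.15, 0.15 and 1 after Benjamini-Hochberg adjustment over the 3. H2-DMb1 lay below and H2-DMb2 above all controls in every imiquimod library. The separation of the share, and so the p-value of 0.1, was therefore fixed before these tests, which add no evidence. When single libraries were left out, the first difference ran from 12.96 to 15.30 points and that of IMQ + XYF from 13.12 to 16.99 points.

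The pair can share reads. The main transcripts of H2-DMb1 and H2-DMb2 were 94.4% identical over 1255 aligned bases, and 369 of 1355 stretches of 50 bases of the H2-DMb1 transcript (27.2%) occurred unchanged in H2-DMb2. The counting tool and its treatment of reads with several matches are not given in the sources used here, so the level of each of the pair is uncertain. The other chains are less alike, with 73.6% identity between H2-Eb1 and H2-Eb2 and 62.7% between H2-Aa and H2-Oa, and no shared stretch of 50 bases in either pair.

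**Figure D3:**
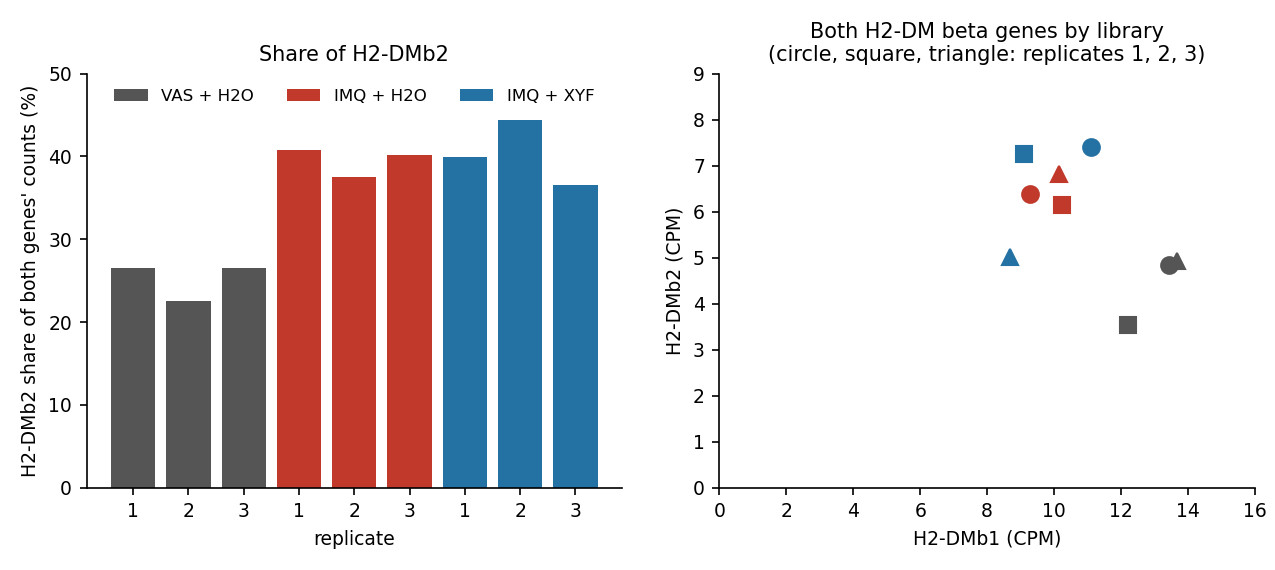
Left, share of H2-DMb2 in the counts of H2-DMb1 plus H2-DMb2 (y axis, percent, from 0) in each of the 9 libraries, coloured by group, with controls at 22.5 to 26.5% and imiquimod libraries at 36.6 to 44.3%. Right, CPM of H2-DMb1 (x axis) against H2-DMb2 (y axis) in the same libraries, where the 3 controls lie apart at the lower right.

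From library to library Cd74, H2-Ab1, H2-Aa and H2-Eb1 varied together. The 9 members summed to 690.5, 542 and 641 CPM in VAS + H2O, 519, 681 and 611 CPM in IMQ + H2O, and 582, 532 and 504 CPM in IMQ + XYF. In VAS + H2O and in IMQ + H2O the libraries spread over a wider range than the means of any pair of groups differed, and in IMQ + XYF they did not. Cd74 gave 1.86 to 2.09 counts for each count of H2-Ab1 over all 9 libraries, with group means of 1.95, 1.94 and 1.93. Invariant chain and beta chain transcripts therefore kept nearly one ratio while both moved.

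H2-Aa gave 0.899 ± 0.0659 counts for each count of H2-Ab1 in the controls, 0.839 ± 0.0516 under IMQ + H2O and 0.813 ± 0.0414 under IMQ + XYF, with overlap. H2-Eb1 gave 0.715 to 0.745 counts for each count of H2-Ab1 in VAS + H2O and 0.676 to 0.687 in IMQ + H2O, which did not overlap, and 0.677 to 0.734 in IMQ + XYF. Ciita followed H2-Ab1 less closely, with a coefficient of variation of their ratio of 17.3% over the 9 libraries, against 13.4% for H2-DMa, 4.06% for Cd74 and 3.99% for H2-Eb1.

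Set against Langerhans cell genes, H2-Ab1 gave 4.45 ± 1.03 counts for each count of Cd207 in the controls, 5.18 ± 0.352 under IMQ + H2O and 5.04 ± 0.0225 under IMQ + XYF. For each count of Csf1r, the receptor on which Langerhans cells depend, it gave 4.01 ± 0.672, 4.20 ± 0.195 and 4.49 ± 0.200. In both ratios the 3 controls spread more than the imiquimod libraries and the groups differed by about this spread or less. These ratios have no test.

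**Figure D4:**
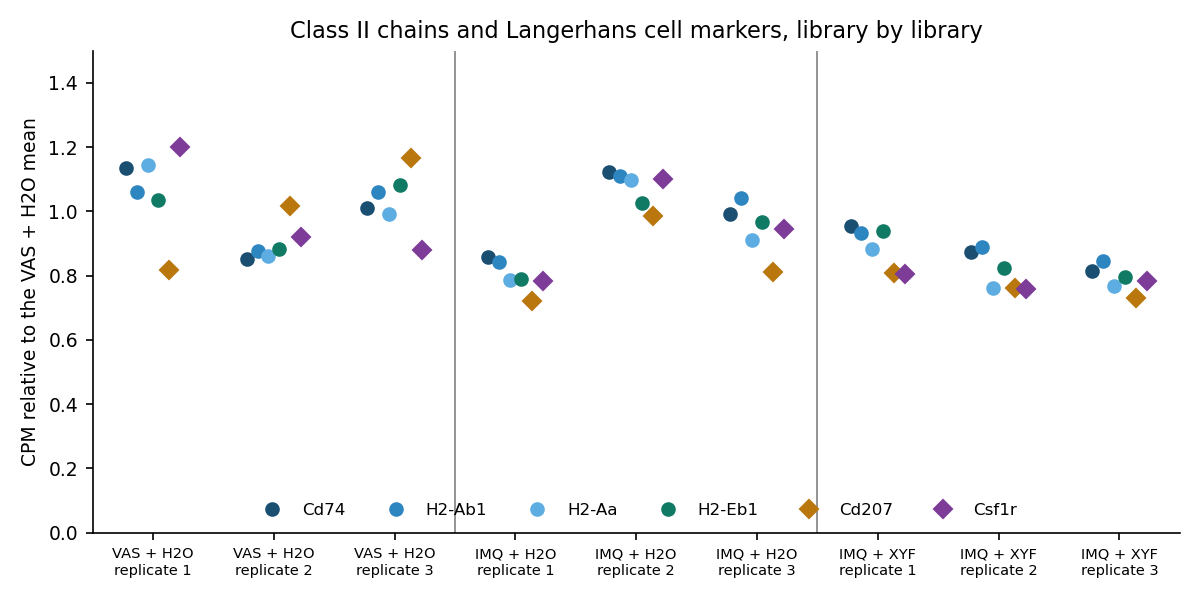
CPM relative to the mean of VAS + H2O (y axis, from 0) of Cd74, H2-Ab1, H2-Aa and H2-Eb1 (circles) and of Cd207 and Csf1r (diamonds) in each of the 9 libraries (x axis). The 4 class II genes lie close together within a library, and Cd207 departs from them in VAS + H2O.

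Markers of the cells that could carry class II were read beside these values. Of 8 Langerhans cell markers, 7 were tested in the first comparison, 8 in the second and 7 in the third. None passed, against 22.1%, 0.0281% and 28.7% of all genes in these comparisons. Of these markers, Itgax was at 6.73 to 9.96 CPM and Ptprc at 10.2 to 22.1 CPM over the 9 libraries. Cd207 was at 24.1, 29.9 and 34.3 CPM in VAS + H2O, 21.2, 29.0 and 23.9 CPM in IMQ + H2O, and 23.8, 22.4 and 21.5 CPM in IMQ + XYF. The list summed to 114.4 to 121.6 CPM in the controls, 87.4 to 144 CPM in IMQ + H2O and 94.6 to 123 CPM in IMQ + XYF. Tyrobp and Fcer1g, which neutrophils share with Langerhans cells, were highest in the libraries with high Csf3r, at 16.2 and 10.8 CPM in IMQ + H2O replicate 3. Without IMQ + XYF replicate 1, 1 Langerhans cell marker passed in the third comparison.

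Other class II-bearing cells left few counts. The B cell genes Ms4a1 and Cd79a had 0 and at most 13 counts in any library, and the list of 6 genes summed to 0.394 to 1.02 CPM. Of the 10 genes of dermal dendritic cells and macrophages, which summed to 4.10 to 10.3 CPM, Cd209a had at most 26 counts and Clec9a at most 2. Mgl2, a lectin of dermal dendritic cells, passed as lower in IMQ + XYF than in VAS + H2O (log2 fold change -1.75, adjusted p = 0.0159 by edgeR). It was the 1 of 6 tested genes of this list that passed, beside 28.7% of all genes. Of the 6, 3 lay on the higher side and 3 on the lower. Mrc1 was at 3.07 (adjusted p = 0.053 by edgeR), with overlap, and Zbtb46 at 0.81, above all controls. None of the list passed in the other comparisons. Without IMQ + XYF replicate 1 none passed, without VAS + H2O replicate 2 there were 2, and without IMQ + H2O replicate 3, 1 passed in IMQ + H2O against VAS + H2O. Mgl2 had 34, 31 and 32 counts in VAS + H2O, 3, 8 and 24 in IMQ + H2O and 10, 11 and 10 in IMQ + XYF.

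Of the 6 T cell markers, 4 passed as lower and Thy1 as higher in IMQ + H2O than in VAS + H2O. Over all genes tested in this comparison, 9.41% passed as lower and 12.7% as higher. Cd3e was at -0.73 ± 0.15 and Thy1 at 1.24 ± 0.13 on the log2 scale, with adjusted p-values of 0.0209 and 0.00575 by edgeR. Without VAS + H2O replicate 2, or without IMQ + H2O replicate 3, 2 of the 6 passed. Cxcr2, a chemokine receptor on the list of 5 neutrophil genes, passed as higher at 2.38 ± 0.22 and was the one gene of that list tested. It did not follow the other neutrophil genes, since it was at 10.6 to 12.6 CPM in the controls, where Csf3r had 0 to 3 counts, and at 49.2 CPM in IMQ + H2O replicate 1, where Csf3r had 5 counts. Of 6 keratinocyte genes, Krt14, Krt1 and Dsg3 passed as higher, by 0.72, 1.45 and 1.32 on the log2 scale, and none as lower, and without VAS + H2O replicate 2, 2 of the 6 passed. Of the 8 dermal fibroblast and cartilage genes 4 passed as lower, among them Col2a1 at -4.11, and 2 passed without IMQ + H2O replicate 3. In IMQ + XYF against IMQ + H2O, all 8 dermal fibroblast and cartilage genes were on the higher side, with a median log2 fold change of 1.70. Of them, 7 had no overlap, against 10.7% of all genes. None passed by edgeR, and 7 had an unadjusted p under 0.05, against 5.43% of all genes. The 8 genes summed to 78.0 to 110.3 CPM in IMQ + H2O and 166 to 352.8 CPM in IMQ + XYF. The part of these cells in the class II values was not tested.

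The genes that act on class II upstream and beside it were read from lists in the order of their roles. Among 7 promoter factors, Nfyb, a subunit of NF-Y, was the only one to pass in IMQ + H2O against VAS + H2O, where 22.1% of all genes passed. It was at 29.1, 26.5 and 26.4 CPM in VAS + H2O and at 37.2, 35.6 and 41.9 CPM in IMQ + H2O, without overlap (log2 fold change 0.47 ± 0.10, adjusted p = 0.0212 by edgeR). Without VAS + H2O replicate 2 no promoter factor passed. The RFX subunits Rfx5, Rfxank and Rfxap did not pass, with Rfx5 at 0.13 (95% interval -0.22 to 0.48) on the log2 scale. In IMQ + XYF against VAS + H2O Nfyb passed again, at 0.65 ± 0.11.

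The interferon-gamma pathway had 9 of 10 genes tested. In the first comparison 0 passed the adjusted p by edgeR, against 22.1% of all genes. At an unadjusted p under 0.05 there were 4 of the 9, against 37.9% of all genes. Ifng itself had 0 counts in all 9 libraries. Irf8, at 0.995 to 1.73 CPM over all libraries, and Irf1 did not pass. Without VAS + H2O replicate 2, or without IMQ + H2O replicate 3, 1 of the 9 passed. In IMQ + XYF against VAS + H2O, 3 of the 9 passed as higher, against 16.7% of all genes. Among the 3 were Socs1, a feedback inhibitor of the pathway, at 0.74 ± 0.22 and Ifngr2, a chain of the receptor, at 0.29 ± 0.07 on the log2 scale. Their adjusted p-values were 0.043 and 0.0253 by edgeR. Of the 9, 1 or 0 passed without VAS + H2O replicate 2 or IMQ + XYF replicate 1.

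Genes of endosomal processing, the step that precedes peptide loading, passed in both directions. Of 12 genes, 3 passed as higher and 1 as lower in IMQ + H2O against VAS + H2O, beside 12.7% and 9.41% of all genes. The protease gene Lgmn rose from 25.2, 29.8 and 28.3 CPM to 47.8, 52.8 and 67.2 CPM, a log2 fold change of 0.999 ± 0.15 with an adjusted p of 0.00975 by edgeR. Ctsb, a cathepsin, rose by 0.84 ± 0.12 and Ctsd by 0.46 ± 0.11, with adjusted p-values of 0.00924 and 0.0301. Cst3, which encodes the cathepsin inhibitor cystatin C, fell by 0.56 on the log2 scale, with an adjusted p of 0.0182 by edgeR.

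Ctss, the cathepsin known to cleave the invariant chain in antigen-presenting cells, was at 15.1, 11.3 and 11.8 CPM against 10.7, 16.9 and 15.8 CPM and did not pass (log2 fold change 0.17, 95% interval -0.31 to 0.66). Without VAS + H2O replicate 2, 2 of the 12 genes passed. In IMQ + XYF against VAS + H2O, 6 passed as higher and 1 as lower, beside 16.7% and 12.0% of all genes. Ctsb was at 1.02 ± 0.06 and Lgmn at 1.06 ± 0.10. The 7 genes became 5 without VAS + H2O replicate 2, and also 5 without IMQ + XYF replicate 1. Ifi30, the lysosomal reductase of antigens, was at 0.30 ± 0.09 and Ctsl at 0.47 ± 0.12 there, with adjusted p-values of 0.045 and 0.0288 by edgeR. Most of these genes are known to be active in many cell types, keratinocytes included.

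The costimulation list holds costimulatory, inhibitory and adhesion genes, which act beside class II at the contact with a T cell. All 6 tested were on the higher side in IMQ + H2O against VAS + H2O. Of them 2 passed, against 22.1% of all genes. Icosl, the ligand of the T cell receptor ICOS, was at 1.56, 1.82 and 0.9746 CPM in VAS + H2O and at 7.46, 8.24 and 12.5 CPM in IMQ + H2O, without overlap (log2 fold change 2.68 ± 0.32, adjusted p = 0.00663 by edgeR). Icam1 was at 1.11 ± 0.32 with an adjusted p of 0.0486, and without IMQ + H2O replicate 3, 1 of the 6 tested genes of this list passed instead of 2. Cd86, a ligand of CD28, was at 3.89, 4.70 and 5.85 CPM against 6.94, 7.20 and 9.60 CPM, without overlap but with an adjusted p of 0.059 by edgeR. Cd80 was at 0.315 to 0.516 CPM in VAS + H2O and reached 3.42 CPM in IMQ + H2O replicate 3, where the neutrophil genes were also high, and its groups overlapped. Cd40 was at 0.364 to 1.32 CPM over the 9 libraries and did not pass.

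In IMQ + XYF against VAS + H2O, 4 of the 6 tested genes of the costimulation list passed as higher, against 16.7% of all genes. They were Icosl at 2.51 ± 0.26, Cd80 at 2.28 ± 0.49, Icam1 at 1.30 ± 0.33 and Cd274, an inhibitory ligand, at 0.85 ± 0.11. Without IMQ + XYF replicate 1, 3 of the 6 passed. In IMQ + XYF against IMQ + H2O no gene of any of these lists passed by edgeR. On the lower side were Cd86 at -0.47 (95% interval -0.86 to -0.07, adjusted p = 0.799) and Rfxank at -0.57, both without overlap. Rfx5 was at -0.42 (-0.80 to -0.04, adjusted p = 0.818). On the higher side were Nfyc at 0.191 (0.013 to 0.368, adjusted p = 0.844) and Sppl2a at 0.185 (0.02 to 0.35, adjusted p = 0.818), both without overlap. Of all genes, 10.7% had no overlap.

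**Figure D5:**
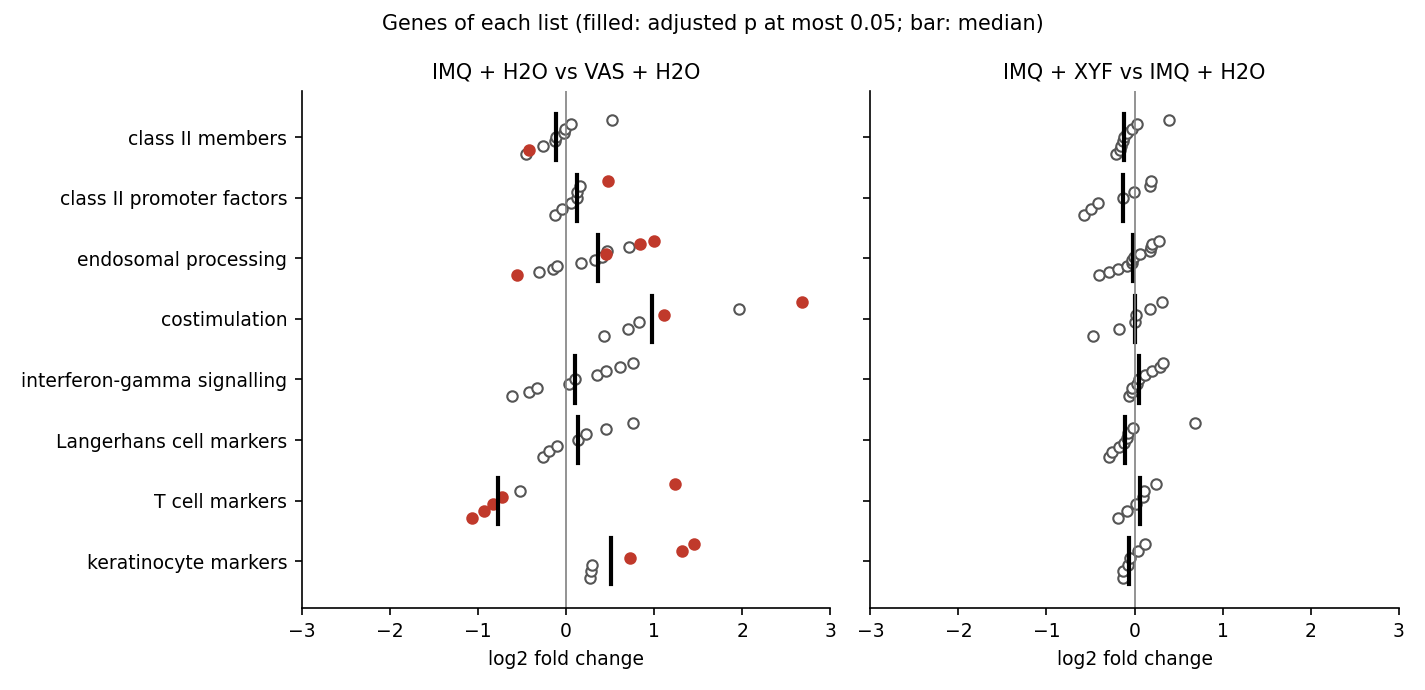
Log2 fold change (x axis) of each tested gene of 8 lists (y axis) under IMQ + H2O against VAS + H2O (left) and IMQ + XYF against IMQ + H2O (right), with filled points for an adjusted p of at most 0.05 by edgeR and a bar at the median. On the left 1 of 9 class II genes, 4 of 12 endosomal processing genes and 2 of 6 genes of the costimulation list are filled, and on the right none. Of all genes tested, 22.1% passed on the left and 0.0281% on the right.

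Over the 9 libraries, the genes whose log2 CPM was most like the scaled mean of the members were Zfp235 (Pearson r 0.96, Spearman rho 0.92), Gm27011 (0.94 and 0.92), Gm29538 (0.92 and 0.93), Evi2a (0.92 and 0.97) and BC043934 (0.90 and 0.80), out of 18483 genes ranked. They were chosen by this value and it has no test, and 4 of the 5 had mean levels under 3 CPM. Of the members themselves, which enter the mean, Cd74 had an r of 0.98 and H2-Aa, H2-Ab1 and H2-Eb1 0.90 to 0.94, whereas H2-DMb1 was at 0.63, Ciita at 0.60, H2-DMa at 0.56, H2-Oa at 0.31 and H2-DMb2 at 0.06. Of the Langerhans cell markers, Csf1r stood at rank 61 with an r of 0.81 and Cd207 at rank 2809 with 0.42. The other ranked markers were Laptm5 (0.54), Ptprc (0.54), Itgax (0.50), Fcer1g (0.26) and Tyrobp (0.015). In the list of dermal dendritic cells and macrophages, Adgre1, a macrophage and Langerhans cell gene, stood at rank 77 with 0.80. The other ranked genes of that list were Mgl2 (0.31), Flt3 (0.15), Xcr1 (-0.29), Mrc1 (-0.36), Cd163 (-0.52) and Zbtb46 (-0.61). Genes in one library share its depth and its mixture of cells.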

How the data were processed

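The authors deposited a table of whole-number counts per gene for the epidermal libraries, without normalization. The submitters' processing notes name FastQC, STAR 2.5, Cuffnorm and DESeq 1.22.1, and the build is GRCm38 with Ensembl 90. The counting tool and strand setting are not given in the sources used here. Symbols altered to dates (27 rows) were followed by identifier. Each pair of groups was fitted on its 6 libraries in R 4.3.3 with edgeR 4.0.16 (TMM, filterByExpr, glmQLFit, glmQLFTest), with Benjamini-Hochberg adjustment over all genes tested and 95% intervals were taken from the F statistic. A DEG needed an adjusted p no higher than 0.05 together with a change of 1 or more on the log2 scale. CPM used TMM factors over 18492 genes that passed in all 9 libraries, and levels per kb used exons of GENCODE M21 on the same build. Shares were compared by exact permutation tests (scipy 1.17.1). The fits were also run on simulated counts with planted changes larger than those of the members. The outcome of that run is not reported here. Total counts ran from 30298275 to 64771160.

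The members and gene lists were chosen with earlier results of these data known. Genes named are all members, the other class II chains, fixed pathway genes and markers, up to 4 genes per list with the lowest adjusted p among those that passed, and the 5 genes most like the members. Ms4a1, Clec9a, Csf3r, Tyrobp, Fcer1g, Adgre1, Brd2 and H2-Ea-ps were chosen after their values were seen. Nfyc, Sppl2a, Laptm5, Flt3, Xcr1, Cd163, Mrc1 and Zbtb46 were also added after their values were seen. The alternatives tried were a block for the replicate number, DESeq2 1.42.0, 1 fit over all 9 libraries, RLE size factors, filters of none and of 10 counts per library, and fits without single libraries. Some genes that the rule would name are not reported here.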

Additional observations from a re-analysis of the deposited data

How the results depend on the processing

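The number of members past the adjusted p of 0.05 was 1 in IMQ + H2O against VAS + H2O and 1 in IMQ + XYF against VAS + H2O, and in both it became 0 with no low-count filter, 0 with at least 10 counts in every library and 2 with DESeq2, and stayed at 1 with RLE size factors and with all 9 libraries in 1 fit. When single libraries were left out it was 0 to 0 in the first and 0 to 1 in the second. With the replicate number as a block it was 0 in both. The labels do not call the numbers pairs. Same-numbered libraries deviated from their group means with correlations of -0.133 to 0.105, and differently numbered ones with -0.223 to 0.172. These values cannot settle whether a pairing exists, and why the call was lost with the block was not tested. In IMQ + XYF against IMQ + H2O the number of members that passed was 0 in every fit. No member was a DEG in any fit of any comparison.

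Of 321 values of single members under an alternative, 272 kept direction and side of the threshold, 17 lost the call, 3 gained it and 29 changed sign. Apart from left-out libraries, the sign changed in IMQ + H2O against VAS + H2O for H2-Ab1 (0.017) and Cd74 (0.007) without the filter and for H2-Ab1 (0) with at least 10 counts, and in IMQ + XYF against VAS + H2O for H2-Oa (0.202) with the block. With a library left out, log2 fold changes against VAS + H2O under IMQ + H2O ran from -0.214 to 0.031 for H2-Aa, -0.095 to 0.13 for H2-Ab1, -0.197 to 0.019 for H2-Eb1, -0.992 to 0.075 for H2-Oa, -0.123 to 0.104 for Cd74 and -0.106 to 0.284 for Ciita. Under IMQ + XYF against IMQ + H2O they ran from -0.199 to 0.038 for H2-DMa, -0.157 to 0.035 for H2-DMb1, -0.076 to 0.187 for H2-DMb2 and -0.328 to 0.023 for Ciita, and against VAS + H2O from -0.606 to 0.469 for H2-Oa and -0.228 to 0.165 for Ciita. The cause was not tested. The H2-DMb2 share differed by -1.18 to 2.70 points between the imiquimod groups when a library was left out, and leaving out single libraries for the share and the marker lists was chosen after seeing the data. H2-Oa did not pass the filter of at least 10 counts in any comparison, so that it has no value there. Depth limits H2-Oa, H2-Ob and H2-Eb2, and 3 libraries per group limit the precision of the rest.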
